A study of Mus musculus with 4 samples.

Results

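Heat shock chaperones were followed across 4 arrays of mouse colonic epithelium through 10 genes, Hspa1a, Hspa1b, Hsph1, Hspa8, Dnajb1, Hsp90aa1, Hspd1, Hspe1, Hspb1 and Bag3, taken by their gene symbol in the platform annotation. They are 10 of the 18193 genes with a symbol of their own on the array and are read by 23 of its 45037 probe sets. The genes were chosen with their differences from wild type known, so those differences are given as a description and none is tested. One array was hybridised for each of 4 genotypes on a C57BL/6 background: wild type (WT), Bmi1ΔIEC, in which Bmi1 is deleted in intestinal epithelial cells, Mel18ΔIEC, in which Mel18 (gene symbol Pcgf2) is deleted there, and the double knockout (DKO), Bmi1ΔIEC Mel18ΔIEC. All mice, wild type included, were 6 to 8 weeks old, sex-matched according to the labels, and given azoxymethane, a colon carcinogen, at 10 mg/kg. They drank 3.5% dextran sulfate sodium, which injures the colonic epithelium, for 5 days from day 5, and epithelial cells were shaken off the colon with EDTA at day 12. The sources used here do not give the promoter that drives the deletion. The design text puts a number from 1 to 4 after each genotype without saying whether it counts mice, so pooling behind an array is unknown.

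Heat shock proteins bind unfolded protein and help it to fold or to be degraded. HSP70 proteins hold a client and release it in a cycle driven by ATP, in which a J-domain protein such as Dnajb1 delivers the client and a nucleotide exchange factor such as Hsph1 or Bag3 ends the cycle. HSP90 takes over signalling proteins that are nearly folded, the mitochondrial ring of Hspd1 and Hspe1 folds imported proteins, and the small protein Hspb1 keeps aggregating proteins soluble. Hspa1a and Hspa1b are low in unstressed cells and are strongly induced by heat shock factor 1, which binds repeats of the unit GAA called heat shock elements, whereas Hspa8 encodes the HSP70 that cells make at all times.

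Values are RMA intensities per probe set, and the probe set that was brightest on average stands for the gene. The size rule called a gene higher or lower at a 2-fold difference or more, provided that at least 1 of the arrays compared lay at or above a floor of 33.4 intensity units, the median of all values. Each genotype has 1 array, so there is no replicate check, no test and no error for any difference, and precision is limited throughout by how few arrays there are. Array medians lay between 32.1 and 34.2. The first Bmi1 probe set had values of 116 (wild type), 334 (Bmi1-labelled), 159.6 (Mel18-labelled) and 432 (DKO-labelled), and the other 88.4, 339, 135 and 399, which goes against a loss of Bmi1 transcript. Pcgf2 read 30.2, 33.4, 39.8 and 32.0 in that order on its brighter probe set, near the floor and highest on the Mel18-labelled array. Cdkn2a read 10.6, 11.9, 11.7 and 662 in that order, above the floor on the DKO-labelled array alone. Where the Bmi1 and Pcgf2 probes lie relative to the deleted exons is not given, so the arrays are named by their labels. All 7 epithelial markers were above the floor on every array, with Epcam, an epithelial adhesion molecule, between 9819 and 10930. They were not all level: Krt20, a keratin of mature surface cells, read 6668, 2729.6, 3637 and 7296 in the order wild type, Bmi1-labelled, Mel18-labelled, DKO-labelled, a log2 difference of -1.29 from wild type on the Bmi1-labelled array and -0.87 on the Mel18-labelled one, and Vil1, of the brush border, differed by -0.52 on the Bmi1-labelled array. The part of these markers in the chaperone values was not tested. Xist, transcribed from the inactive X chromosome, read 122, 45.5, 54.2 and 611 in that order on its brightest probe set, and was highest on the DKO-labelled array on all 3 of its probe sets, which goes against the sex matching that the labels state.

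The windows upstream of the inducible pair are shown first because they are nearly one sequence. RefSeq windows of build GRCm38.p6 were at hand for 8 of the 10 members, and the 250 bases before each annotated transcript start were searched for paired heat shock units. The capitals in the sequences mark these pairs.
Hspa1a (chr17:34972157-34972406, minus strand): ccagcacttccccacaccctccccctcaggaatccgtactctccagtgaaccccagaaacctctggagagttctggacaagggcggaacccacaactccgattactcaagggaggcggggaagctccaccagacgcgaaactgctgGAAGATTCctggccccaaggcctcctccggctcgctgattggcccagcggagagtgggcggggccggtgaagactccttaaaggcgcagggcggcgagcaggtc
Hspa1b (chr17:34959239-34959488, minus strand): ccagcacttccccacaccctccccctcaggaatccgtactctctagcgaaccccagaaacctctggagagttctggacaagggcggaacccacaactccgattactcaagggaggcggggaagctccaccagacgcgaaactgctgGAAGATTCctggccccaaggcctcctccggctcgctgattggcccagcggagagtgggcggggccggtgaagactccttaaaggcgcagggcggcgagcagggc

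The windows were identical at 247 of 250 bases (98.8%). They differed by C207T, T204C and T2G, with the Hspa1a base first and positions counted back from the base before the transcript start as 1. Both held the same pair of units 97 to 104 bases before the start. The genes lie next to each other on chromosome 17, on the same strand.

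Another 4 members held a pair, and the stretches around them are shown because they include the mitochondrial partners, which share their bases.
Hsph1 (chr5:149636347-149636384, minus strand): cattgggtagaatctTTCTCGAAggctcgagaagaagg
Hspb1 (chr5:135887787-135887844, plus strand): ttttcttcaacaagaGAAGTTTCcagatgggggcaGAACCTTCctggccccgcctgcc
Hspd1 (chr1:55088044-55088091, minus strand): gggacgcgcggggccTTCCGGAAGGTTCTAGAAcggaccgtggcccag
Hspe1 (chr1:55088044-55088091, plus strand): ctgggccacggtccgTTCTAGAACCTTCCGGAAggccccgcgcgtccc

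Hspd1 and Hspe1 are neighbours on chromosome 1 that are read in opposite directions, and the stretches above are the 2 strands of the same 48 bases, with 3 overlapping pairs of units. The motif GAANNTTC was found in 5 of the 8 members with a window, against 7.73% of 27025 genes, and TTCNNGAA in 3 of 8, against 8.11%. The members are not independent in these counts. Hspa1a and Hspa1b hold GAANNTTC in nearly one sequence, and Hspd1 and Hspe1 hold both motifs in the same bases. Both motifs read the same on either strand. The longer motif, GAANNTTCNNGAA or its reverse TTCNNGAANNTTC, was found in Hspd1 and Hspe1, which share it, and in 0.514% of genes. It contains the shorter motifs, so these counts overlap. CCAAT or its reverse ATTGG was found in 4 of 8 (Dnajb1, Hspa1a, Hspa1b and Hsph1), against 37.5% of genes, and TATAAA or TTTATA in 0 of 8, against 14.3%. No pair was found in the windows of Dnajb1 and Bag3, which says only that these letters are not there.

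**Figure D1:**
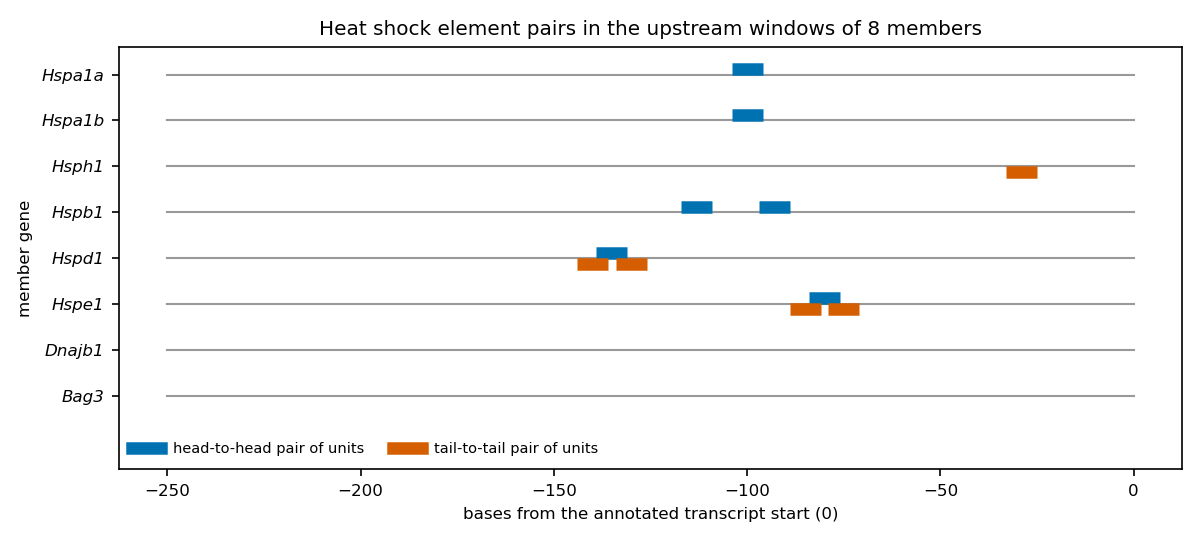
Positions of paired heat shock units in the 250 bases before the transcript start of 8 members, with the x axis in bases from the start (0). Blue bars are head-to-head pairs (GAANNTTC), orange bars are tail-to-tail pairs (TTCNNGAA). Hsph1, Hspd1 and Dnajb1 have 2 windows each. The start shown is the one that places the pair nearest to it (Hsph1) or the one with a pair (Hspd1), and neither Dnajb1 window holds a pair. Hspa1a and Hspa1b carry 1 pair at the same place, and Dnajb1 and Bag3 carry none.

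The inducible HSP70 genes were the members farthest below wild type on all 3 knockout-labelled arrays. Hspa1a, read by 1 probe set, stood at 227 in wild type. Its values were 46.0 for the Bmi1-labelled array, 60.1 for the Mel18-labelled and 43.1 for the DKO-labelled one. Hspa1b stood at 1789, 285, 526 and 434 in the same order on its brightest probe set, 1452318_a_at. Wild type was the high array for both genes, and the 3 knockout-labelled arrays lay between 15.9% and 29.4% of it.

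On the log2 scale Hspa1a differed from wild type by -2.30, -1.92 and -2.40, and Hspa1b by -2.65, -1.77 and -2.05, in the order Bmi1-labelled, Mel18-labelled, DKO-labelled. The other Hspa1b probe sets gave the same picture. Probe set 1427126_at read 554, 67.4, 145 and 85.6, and 1427127_x_at read 637, 95.5, 167 and 141. Over the 3 Hspa1b probe sets the differences ran from -3.04 to -2.65, from -1.94 to -1.77 and from -2.69 to -2.05. The genes are near copies of each other, so signal from one may be read by probes of the other and they count as uncertain as separate measurements.

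The order below wild type was less settled than the drop itself. The Mel18-labelled array was the highest of the knockout-labelled arrays on all 4 Hspa1a and Hspa1b probe sets. The Bmi1-labelled array was the lowest on the 3 Hspa1b probe sets, while for Hspa1a the Bmi1-labelled and DKO-labelled arrays read 46.0 and 43.1. The preparation was not sorted, so fewer cells that make a transcript and less transcript per cell cannot be told apart in these values.

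**Figure D2:**
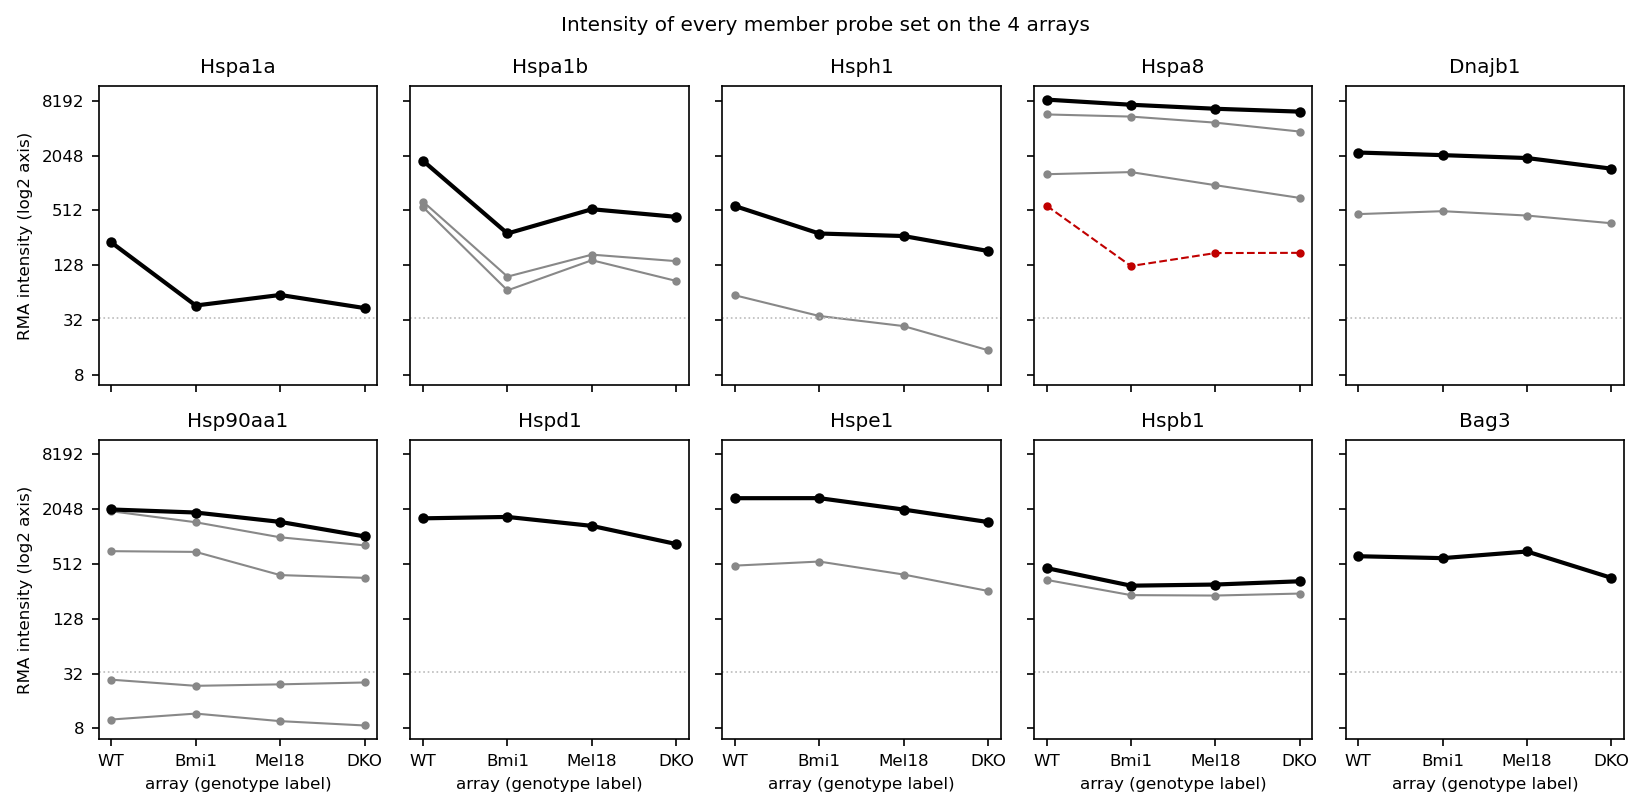
RMA intensity (log2 axis) of every member probe set on the 4 arrays, 1 panel per gene. Black lines are the probe sets that represent the gene, grey lines the others, the red dashed line is Hspa8 probe set 1431182_at, and the dotted line is the floor of 33.4. Hspa1a and Hspa1b are high in wild type alone, whereas most other members slope down to the DKO-labelled array.

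Hspa8, the constitutive HSP70, stayed close to wild type on its brightest probe set, 1455789_x_at, at 8426, 7398, 6685 and 6215 in the same array order, which holds for all values given 4 at a time from here on. Its log2 differences were -0.19, -0.33 and -0.44. Probe set 1420623_x_at read 5789, 5482, 4704 and 3755, and 1420622_a_at read 1275, 1346, 967 and 700.3. These 3 probe sets were all lowest on the DKO-labelled array and none was 2-fold below wild type.

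The fourth Hspa8 probe set, 1431182_at, did something else. Its values were 576, 125, 173 and 174 in the usual array order, with wild type the high array, or log2 differences of -2.20, -1.73 and -1.72. After centring each probe set on its own mean, its root mean square distance from the shared Hspa1a and Hspa1b profile over the 4 arrays was 0.19, against 0.85 to 0.91 for the other Hspa8 probe sets and 0.12 to 0.24 for the 4 probe sets of Hspa1a and Hspa1b. It was singled out after its values were seen. What the probes of 1431182_at bind was not tested, and if this probe set stood for the gene, Hspa8 would be called lower on all 3 arrays.

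Among the exchange factors that reset HSP70, Hsph1 lay below wild type on every knockout-labelled array and Bag3 on some. Hsph1, of the HSP110 family, read 571, 285, 267 and 183, with log2 differences of -1.004, -1.10 and -1.64. Its second probe set, 1423566_a_at, read 59.7, 35.3, 27.3 and 14.8, so on the Mel18-labelled and DKO-labelled arrays it was under the floor. The difference of Hsph1 on the Bmi1-labelled array lies on the 2-fold line, was -0.76 on the second probe set, and passed the rule in 6 of 9 settings of the processing, between -1.23 and -0.88.

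Bag3, which links HSP70 to autophagy, read 623, 594, 702 and 360 on its 1 probe set. It was near wild type on both single-knockout-labelled arrays, at -0.07 and 0.17, and at -0.79 on the DKO-labelled array. Dnajb1, the J-domain partner of the inducible HSP70s, read 2208, 2067, 1921 and 1468, and its second probe set 465, 501, 448 and 369. The DKO-labelled array was lowest on both Dnajb1 probe sets, at -0.59 and -0.33, and neither was 2-fold below wild type.

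Hsp90aa1, the stress-responsive cytosolic HSP90, read less at each step from wild type over the Bmi1-labelled and Mel18-labelled to the DKO-labelled array. Its brightest probe set, 1438902_a_at, read 2033, 1882, 1485 and 1028, with log2 differences of -0.11, -0.45 and -0.98. Probe set 1437497_a_at read 1945, 1471, 1005 and 821, and 1426645_at read 708, 695, 387 and 360. On the DKO-labelled array these 3 probe sets differed by -0.98, -1.24 and -0.97, so the gene lies just outside the 2-fold rule and 1 of its probe sets just inside. The other 2 Hsp90aa1 probe sets stayed under the floor on all arrays, between 8.60 and 27.4.

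The mitochondrial partners had nearly the same profile. Hspd1, which forms the folding chamber, read 1625, 1683, 1342 and 848, and Hspe1, its lid, read 2705, 2709, 2029 and 1480.0 on its brighter probe set and 491, 544, 392 and 259 on the other. Both genes were level with wild type on the Bmi1-labelled array, at 0.05 and 0.00, below it by less than 2-fold on the Mel18-labelled array, at -0.28 and -0.42, and at -0.94 and -0.87 on the DKO-labelled array. Their centred profiles over the 4 arrays were 0.08 apart, and Hspe1 was the 18th closest of 12153 genes to Hspd1. Hsp90aa1 and Hspe1 were the closest pair of members, at 0.05, and Hspa1b and Hspd1 the farthest, at 0.97.

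Hspb1, the small heat shock protein, had an order of its own. It read 462, 296, 304 and 330.5, and 342, 233, 230.3 and 242 on its second probe set. All 3 knockout-labelled arrays lay below wild type by -0.64, -0.60 and -0.48 on the first probe set, and the DKO-labelled array was the highest of them on both.

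**Figure D3:**
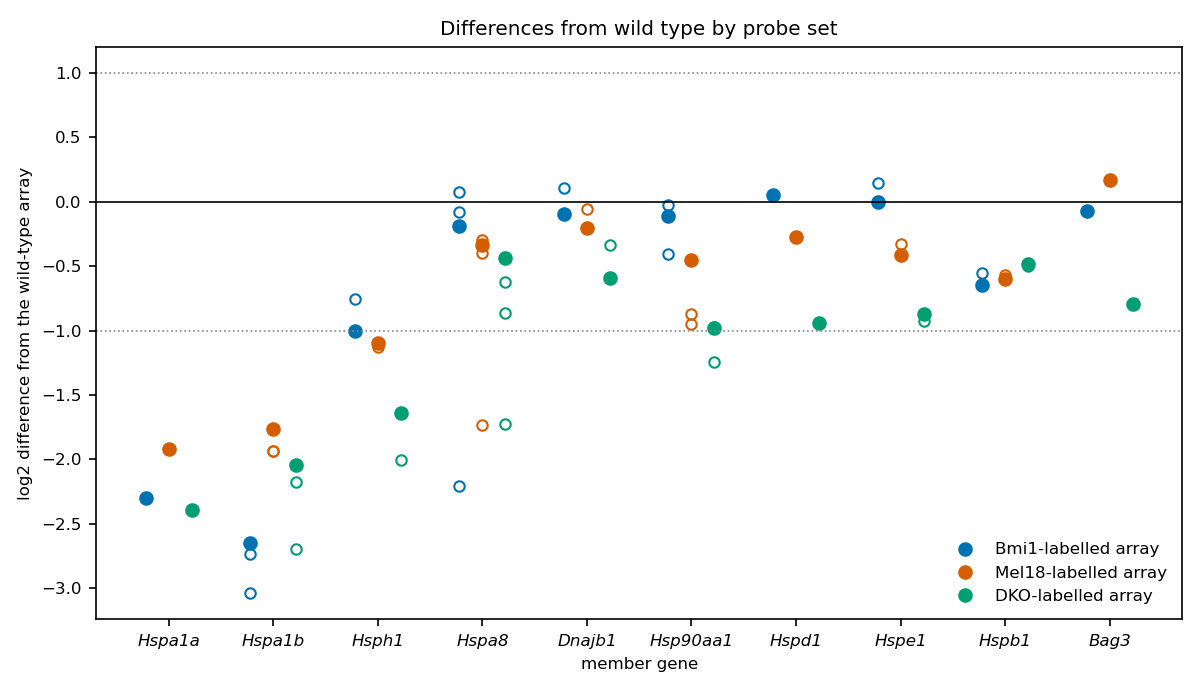
Log2 difference from the wild-type array for each member, with colours for the Bmi1-labelled, Mel18-labelled and DKO-labelled arrays. Filled points are the probe sets that represent the genes, open points the other probe sets above the floor on at least 1 array, and dotted lines mark 2-fold. Hspa1a, Hspa1b and 1 open point of Hspa8 lie at or below -1.7 on every array.

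Set side by side, the inducible genes and the other members differed on each array, most on the Bmi1-labelled one. The mean log2 difference of Hspa1a and Hspa1b was -2.48, -1.84 and -2.22 in that array order. The median of the other 8 members was -0.10, -0.37 and -0.83, beside medians of 0.13, 0.07 and -0.01 over all genes at or above the floor in each comparison. The gap between the inducible pair and the others was thus -2.37, -1.47 and -1.39. From the Bmi1-labelled to the DKO-labelled array the pair's mean differed by 0.26 and the median of the others by -0.68. The other 8 members ranged from -1.004 to 0.05, from -1.10 to 0.17 and from -1.64 to -0.44.

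By the 2-fold rule 3 of the 10 members were lower and 0 higher than wild type on the Bmi1-labelled array, where 2.86% of all genes were lower and 5.76% higher. The counts were 3 and 0 on the Mel18-labelled array, where 2.5% were lower and 3.15% higher, and 3 and 0 on the DKO-labelled array, where 2.19% were lower and 2.13% higher. They were Hspa1a, Hspa1b and Hsph1 each time, and 0.337% of genes were lower on all 3 arrays. The members were chosen on these differences, so nothing is read from the counts. Just inside the rule stood Hsph1 at -1.004 on the Bmi1-labelled array, and just outside Hsp90aa1 at -0.98 and Hspd1 at -0.94 on the DKO-labelled array. Without regard to the rule, all 10 members read below wild type on the DKO-labelled array, 9 on the Mel18-labelled and 8 on the Bmi1-labelled array. Of all genes tested, 52.0%, 41.9% and 40.0% read below wild type in that order. The 3 comparisons share the wild-type array.

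**Figure D4:**
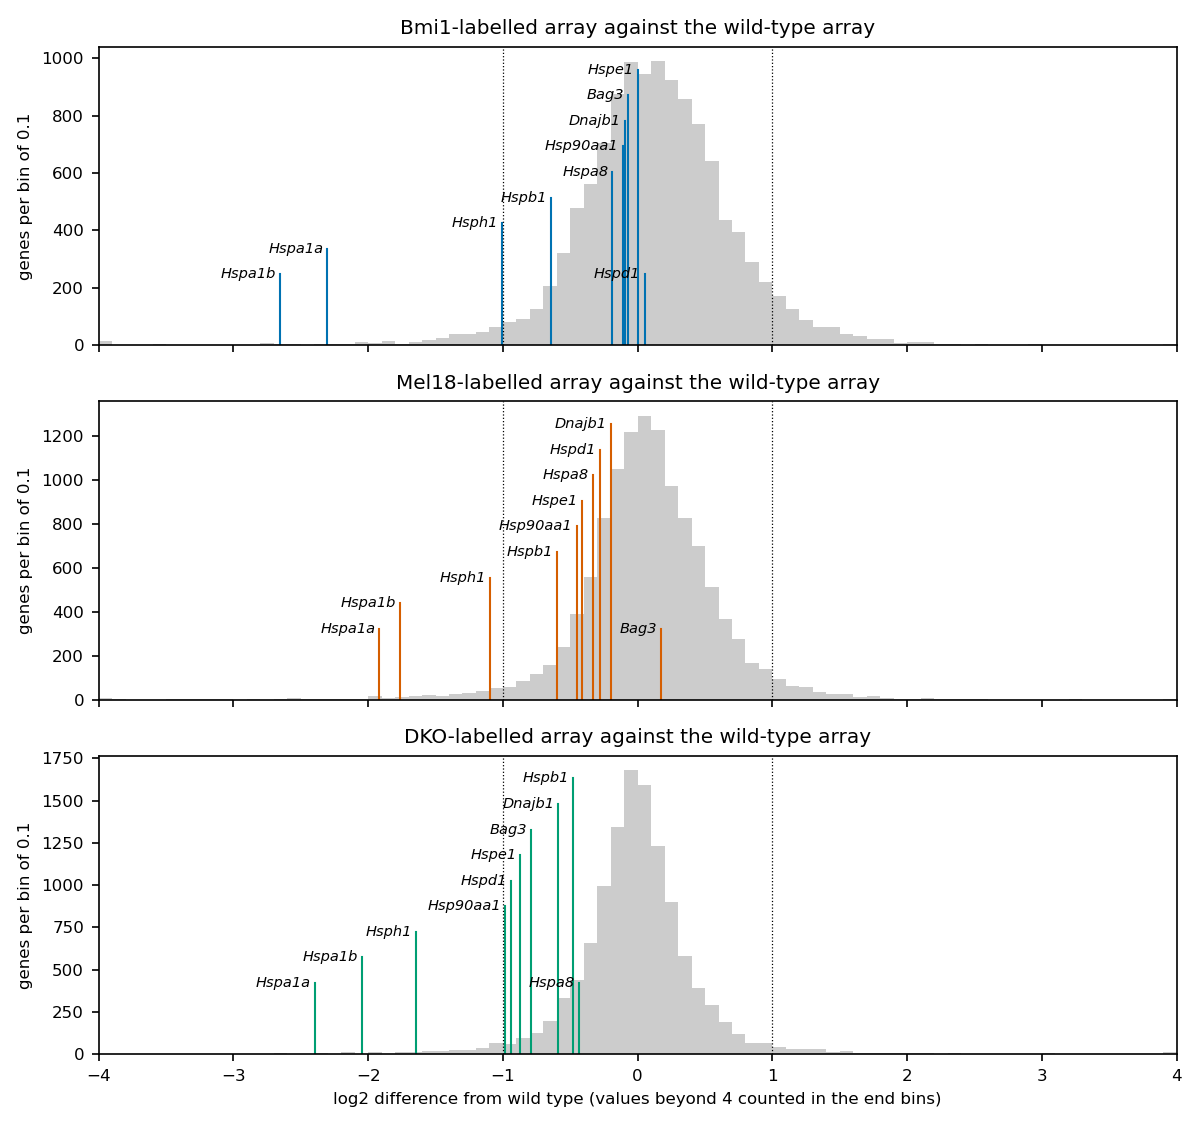
Distribution of the log2 difference from wild type over all genes at or above the floor (grey bars, genes per bin of 0.1), 1 panel per knockout-labelled array, with the members marked by coloured lines whose height has no meaning. Dotted lines mark 2-fold. Hspa1a, Hspa1b and Hsph1 lie left of the 2-fold line in every panel, and all 10 members lie left of 0 on the DKO-labelled array.

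Between the knockout-labelled arrays no member passed the 2-fold rule. Of all genes 12.3% passed it between the DKO-labelled and Bmi1-labelled arrays, 7.96% lower and 4.3% higher on the former. Between the DKO-labelled and Mel18-labelled arrays 8.37% passed, 4.53% lower and 3.84% higher, and between Bmi1-labelled and Mel18-labelled 1.4% passed, 0.522% lower and 0.882% higher. The split depended on scaling: of the genes called between the DKO-labelled and Bmi1-labelled arrays 35.1% were higher, against 61.4% with each array centred on its genes above the floor, and between the DKO-labelled and Mel18-labelled arrays 45.9% against 63.0%. The DKO-labelled array was lower than the Bmi1-labelled array by most for Hspd1 (-0.99), Hsp90aa1 (-0.87) and Hspe1 (-0.87), whereas Hspa1b read higher there (0.61). Hspa1a differed by -0.09, and by -0.18 to 0.14 over the settings of the processing. Against the Mel18-labelled array the lowest was Bag3 (-0.96), then Hspd1 (-0.66) and Hsph1 (-0.55). The DKO-labelled array was lowest for 7 of the 8 other members, beside 35.1% of all genes at or above the floor, and wild type was highest for 5 of them, beside 19.9%. On their brightest probe sets Hsph1, Hspa8, Dnajb1 and Hsp90aa1 had one order from high to low, namely wild type, Bmi1-labelled, Mel18-labelled, DKO-labelled. The second Dnajb1 probe set and Hspa8 probe set 1420622_a_at were instead highest on the Bmi1-labelled array, and Hspa8 probe set 1431182_at was lowest there. The gaps between neighbours in the shared order have no replicate spread to be set against.

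The wider chaperone network was described from lists of 79 further genes on the array, of which 69 to 70 were at or above the floor in a comparison. It did not follow the inducible pair. In it, 2 genes were higher and 1 lower than wild type on the Bmi1-labelled array, beside 8.61% of all genes called either way, 0 and 1 on the Mel18-labelled array, beside 5.65%, and 0 and 2 on the DKO-labelled array, beside 4.32%. The network medians were 0.25, 0.06 and -0.10.

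Heat shock factor genes were barely measured. Of 4 listed genes 3 had a value, and heat shock factor 1 is not among them. Hsf2 and Hsf4 were under the floor on all arrays, and Hsbp1, a heat shock factor binding protein, read 1172, 1342, 1141 and 1196. Among the other HSP70 and HSP110 genes, Hspa4l, a relative of Hsph1, was the lowest. It read 323, 191, 154 and 208 and differed by -0.75, -1.07 and -0.63, so it passed the rule on the Mel18-labelled array alone. Hspa2 had the largest increase of that list, at 0.84 on the Bmi1-labelled array. Hspa9, the mitochondrial HSP70, read 793, 1089.8, 866 and 552, with the DKO-labelled array lowest as for Hspd1 and Hspe1.

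HSP90 cochaperones held both genes that were lower on the DKO-labelled array. Fkbp4, an immunophilin that works with HSP90 on steroid receptors, read 404, 482, 413 and 170.1, a difference of -1.25 on that array. Stip1, which hands clients from HSP70 to HSP90, read 258, 205, 191 and 128, a difference of -1.01 there, near the 2-fold line. Under some settings of the processing only 1 gene of the network was lower on that array. The median of the 9 measured genes of that list was -0.05, 0.03 and -0.57 on the 3 arrays. Chordc1, another HSP90 partner, read 585, 455, 447 and 346.

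The J-domain list had 12 genes with medians of 0.11, 0.06 and 0.01. Dnajb4 was the exception on the Bmi1-labelled array at 1.48, reading 123, 343, 245 and 139, and Dnaja1, a main partner of Hspa8, read 1715, 1223, 1139 and 1403. The TRiC chaperonin and prefoldin, which fold actin and tubulin, had none of 14 genes past the rule, with medians of 0.37, 0.11 and -0.20. Cct8, a TRiC subunit, read 511, 726, 532 and 318. The largest difference of that list was that of Vbp1, at 0.85 on the Bmi1-labelled array. Mitochondrial folding factors and proteases had medians of 0.37, 0.12 and -0.17, with the iron-sulfur cochaperone Hscb higher on the Bmi1-labelled array at 1.21.

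The list of exchange and release factors, which also holds other HSP70 cochaperones, had 0 of 7 past the rule, with medians of 0.36, 0.24 and -0.09. St13, among these other cochaperones, read 1005, 1717, 1415 and 886. The largest difference of the list was that of Bag4, at 0.90 on the Bmi1-labelled array. Small heat shock proteins other than Hspb1 had 0 of 5 past the rule. Hspb8, a partner of Bag3, read 112, 102, 86.0 and 132. Hspb11 had the largest difference of these, at 0.81 on the Bmi1-labelled array. Of 5 other heat-responsive genes, Serpinh1, the collagen chaperone, was lower on the Bmi1-labelled array at -1.15, and the fibroblast marker Col3a1 was lower there as well at -1.85, whose part in the Serpinh1 value was not tested. Zfand2a, an arsenite- and heat-induced gene, read 109, 107, 92.0 and 175.

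**Figure D5:**
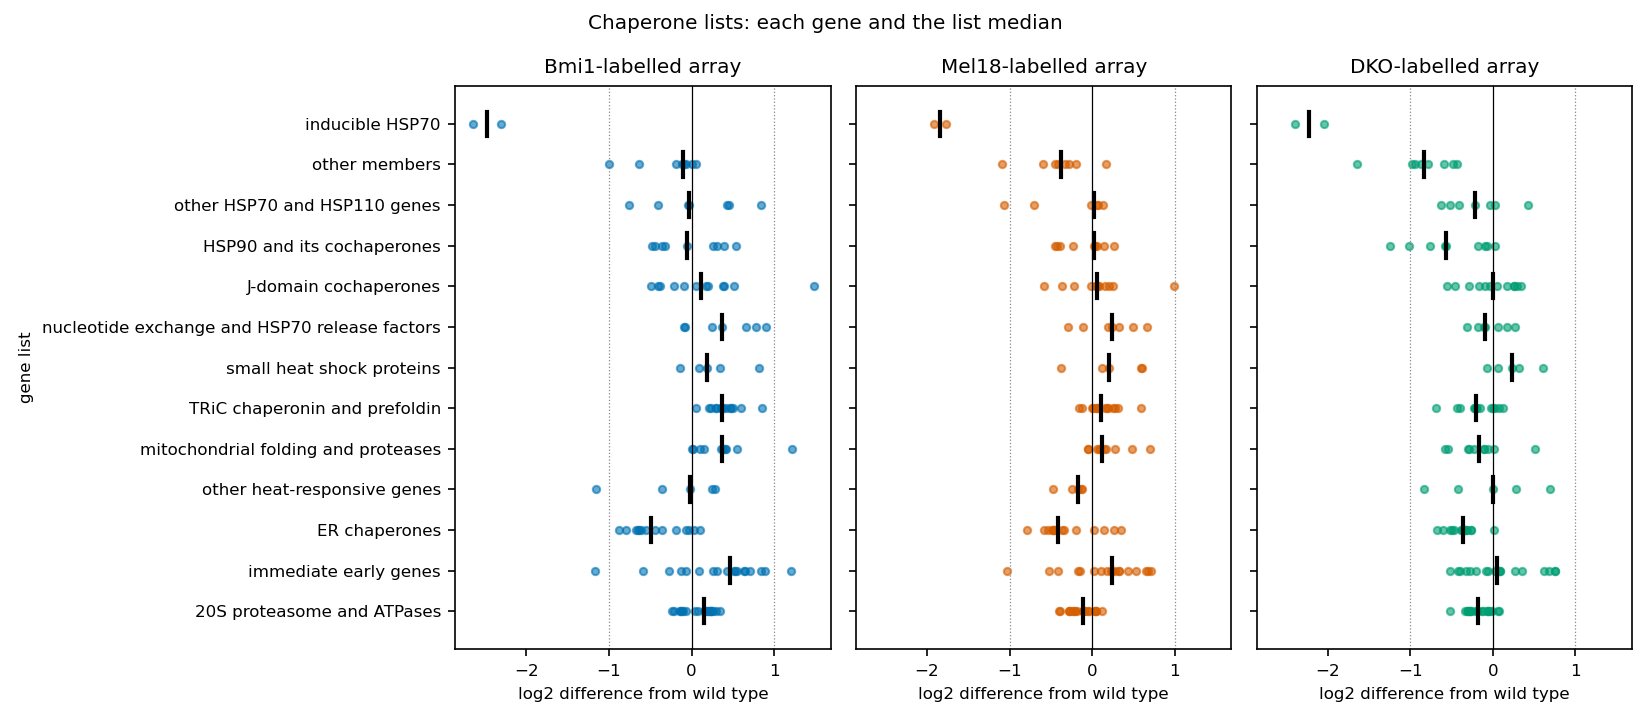
Log2 difference from wild type of each listed gene at or above the floor in the comparison (points) and the list median (black bar), for the Bmi1-labelled, Mel18-labelled and DKO-labelled arrays. Dotted lines mark 2-fold. The inducible HSP70 row has medians of -2.48, -1.84 and -2.22, and the medians of all lists below the members lie between -0.57 and 0.47.

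Chaperones of the endoplasmic reticulum, which answer to another stress pathway, had medians of -0.49, -0.41 and -0.36 with 0 of 14 genes past the rule on each array. Their Hspa5, the HSP70 of that compartment, read 6215, 3582, 4138 and 4427, high in wild type as Hspa1a and Hspa1b were but with a smaller difference. Immediate early genes, transcription factors and regulators switched on within minutes of many stimuli, had medians of 0.47, 0.24 and 0.05. Their Jun read 2122, 3924, 3073 and 1579, highest on the Bmi1-labelled array. Fosb, a partner of Jun, was higher than wild type on the Bmi1-labelled array at 1.20, and Socs3, a brake on cytokine signalling, was lower on both single-knockout-labelled arrays at -1.17 and -1.03. Proteasome genes had medians of 0.15, -0.11 and -0.18, and oxidative stress genes -0.39, -0.26 and 0.02, with none past the rule in either list.

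Hspa1a and Hspa1b hold the pair GAANNTTC, and other genes that hold it in their upstream window had medians close to those of all genes with a window. On the Bmi1-labelled array 36 of 568 such genes were higher and 19 lower than wild type, or 6.34% and 3.35%, beside 5.82% and 2.68% of all genes with a window. On the Mel18-labelled array 16 of 566 were higher and 16 lower, or 2.83% each, beside 3.11% and 2.24%, and on the DKO-labelled array 13 of 565 were higher and 11 lower, or 2.30% and 1.95%, beside 2.02% and 2.09%. Their medians were 0.15, 0.07 and -0.02, beside 0.14, 0.08 and -0.02. Of other genes that hold TTCNNGAA, as Hsph1 does, 4.24%, 2.90% and 1.68% were lower than wild type on the 3 arrays. Higher were 6.05%, 3.20% and 1.83%. The longer element of Hspd1 and Hspe1 was held by 40 to 41 other genes tested, of which 2 were higher and 1 lower on the Bmi1-labelled array, 1 and 0 on the Mel18-labelled array and 1 and 1 on the DKO-labelled array, counts too small to set against those shares. A match of letters does not show that a factor binds there, and GAANNTTC and TTCNNGAA are short, found in 7.73% and 8.11% of genes. The part of these motifs in the chaperone values was not tested.

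The genes whose pattern was most like that of Hspa1a and Hspa1b were found by the root mean square distance between log2 profiles over the 4 arrays, each centred on its mean. Leaving out 2 genes with systematic names, the 10 closest of 12152 compared were Clca3a2, Ccdc25, Osmr, Scd1, Kcnq1ot1, Hal, Cyp2d9, Clca3a1, Sgk2 and Ccl8, at distances from 0.29 to 0.41. Osmr, the receptor for oncostatin M, read 203, 39.4, 35.8 and 34.4, and Scd1, a fatty acid desaturase, read 391, 119.9, 186 and 98.4. Of the other members Hsph1 was the closest, 28th at 0.53, and Hspb1 came 243rd at 0.73. Bag3 was the farthest, 2515th at 0.91.

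Markers of other cells in the preparation also differed between the arrays. The summed intensity of 8 neutrophil markers was 1897, 179, 293 and 1842, with S100a8 and S100a9, the calprotectin subunits, at 935 and 762 in wild type, against 33.1 and 15.95 for the Bmi1-labelled array. The 10 macrophage markers summed to 4124, 2704, 2504 and 4305. Of these Cd14, a receptor for bacterial lipopolysaccharide, gave 1549 of the sum on the Bmi1-labelled array, and the other 9 markers were lower there than on the Mel18-labelled array, with a median difference of -0.55 over all 10. The sums were 3207, 1254, 3387 and 5079.7 for 7 fibroblast markers and 7059, 4509.5, 6259.6 and 6749.6 for 7 smooth muscle markers. Of the neutrophil markers 5 were above the floor in wild type, 0 on the Bmi1-labelled array and 5 on each of the others. The 6 T cell markers summed to 402, 356, 303 and 553, the 4 B and plasma cell markers to 949, 924, 854 and 1802, and the 5 endothelial markers to 172, 183, 155 and 188. Only 1, 2, 2 and 2 of the endothelial markers reached the floor. On the Bmi1-labelled array Vwf differed by 1.08 and Kdr by -0.25. In the B and plasma cell sum Jchain alone gave 789 in wild type and 1686 on the DKO-labelled array. The other 3 markers of that list were lower than wild type there, and the list median was -0.31. No marker of these lists was at 0, and the lowest value of any probe set on the arrays was 3.25. On both single-knockout-labelled arrays the neutrophil and macrophage markers above the floor read below wild type, as Hspa1a and Hspa1b did. The exception was Cd14, above wild type on the Bmi1-labelled array at 0.37. The part of these markers in the HSP70 values was not tested. On the DKO-labelled array the neutrophil and macrophage sums were close to wild type, though macrophage markers differed both ways, from -0.73 (Cd14) to 0.66 (Lyz2). Hspa1a stood at 19.0% and Hspa1b at 24.2% of wild type there, and how these values relate to the markers was not tested.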

How the data were processed

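RNA from colonic epithelial cells (200 ng per array) was hybridised to 4 Affymetrix Mouse 430 2.0 arrays, 1 per genotype. The deposited values are intensity values on a linear scale from 3.25 to 22803, and the submitters' processing notes name RMA in Expression Console as what the authors used. The sources used here do not say if all arrays went into 1 RMA run. RMA brings arrays run together to one distribution, so a shift of all genes would not be seen. Log2 was taken without a pseudocount. The platform annotation gave 34945 probe sets 1 symbol, 932 several and 9160 none. No member lies in a probe set with several symbols. Genes past the floor on at least 1 array numbered 12154.

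The members and all lists were chosen with earlier results of these data known. Named genes are all member probe sets, the 10 closest profiles, genes near the 2-fold line and some list genes. Up to 3 genes per list were taken from the 3 with the largest differences from wild type. They are not always the largest of those. Hspa9, Hsf2, Hsf4, Epcam, Krt20, Vil1, Cd14, Lyz2, Jchain, Cdkn2a, Col3a1, S100a8 and S100a9 were added after their values were seen. The design had foreseen that values might be linear. The calling code was tested on simulated data. Python 3.11.15, numpy 2.4.6 and pandas 2.3.3 (figures: matplotlib 3.10.9) were used. Alternatives were other probe-set rules, floors, scalings, a pseudocount of 16 and a 1.5-fold rule.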

Additional observations from a re-analysis of the deposited data

Results flagged for a closer look

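Hspa1b differed in direction between the backgrounds on which Mel18 was lost. On the wild-type background the Mel18-labelled array read lower by a log2 difference of -1.77 (1789 against 526), and on the Bmi1-labelled background the DKO-labelled array read higher by 0.61 (285 against 434) on the brightest probe set, each at least 1.5-fold. The other Hspa1b probe sets differed between the DKO-labelled and Bmi1-labelled arrays by 0.34 and 0.57, under 1.5-fold, and the gene's value ran from 0.34 to 0.84 over the settings of the processing. With 1 array per genotype the difference was not tested. Hspa1a did not do the same, at -1.92 and -0.09.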

How the results depend on the processing

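No paired analysis was possible because each genotype has 1 array and the labels give no replicate numbers, and for the same reason no replicate could be left out. Over 8 alternative settings, 369 of 400 member differences moved by less than 0.23 on the log2 scale (the SD of the log2 difference over all genes in the closest pair of arrays, divided by the square root of 2), 31 moved by more, and no called difference changed sign. Most of the larger moves came with probe sets of a suffix left out (10), arrays centred on genes above the floor (10) and probe sets averaged (8). Hspa1a and Hspa1b stayed past the 2-fold rule in all 3 comparisons with wild type in each of these settings. The member count between the DKO-labelled and Bmi1-labelled arrays went from 0 to 1 without _x_at, _s_at and _a_at probe sets (Hspe1 at -1.07) and to 1 with arrays centred on their medians (Hspd1 at -1.08), where the count against the Mel18-labelled array also became 1 (Bag3 at -1.02). Hspa8 was called lower than wild type in 1 of 9 settings, the one that represents it by probe set 1431182_at. Under a 1.5-fold rule the DKO-labelled array had 8 of 10 members past it against wild type, 6 against the Bmi1-labelled and 2 against the Mel18-labelled array, beside 12.7%, 31.3% and 22.8% of all genes. The wider network, with 3, 1 and 2 genes past the 2-fold rule on the Bmi1-labelled, Mel18-labelled and DKO-labelled arrays, had 11 of 70, 9 of 69 and 8 of 70 past 1.5-fold, beside 25.4%, 18.1% and 12.7% of all genes. On the DKO-labelled array it had 1 with the mean over probe sets, 1 without the suffixed probe sets and 1 with a pseudocount of 16, and on the Mel18-labelled array 2 with median centring and 0 with the pseudocount. Centring arrays on the genes whose mean reached the floor moved the median of all genes on the Bmi1-labelled array from 0.13 to -0.11 and the share of its called genes that were higher from 66.8% to 39.0%, and median centring gave 76.1%. On the Mel18-labelled array that share went from 55.8% to 37.2%. Against the Bmi1-labelled array the share for the DKO-labelled array went from 35.1% to 61.4%, and against the Mel18-labelled array from 45.9% to 63.0%.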
